A study of Mus musculus with 9 samples.

Results

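Sorted monocytes/macrophages of the stroke brain were compared with those of the stroke blood across the whole transcriptome, and the functional programs that differed are described here. The members of the comparison were chosen by their labels: the 3 stroke brain libraries and the 3 stroke blood libraries, 6 of the 9 libraries of the series, with the 3 sham blood libraries used only as a reference level. All mice were male C57BL/6J mice, 9 weeks old per the study's design text, and stroke was made by permanently closing the distal branch of the left middle cerebral artery together with the left common carotid artery (dMCAO), with brain and blood taken 5 days later. Each brain library was a pool of cells from the ipsilesional hemispheres of 5 mice, and each blood library came from 1 mouse. All cells were sorted as CD11c- Ly6G- CD11b+ CD45high. Blood cells were isolated on a Ficoll gradient and brain cells by enzymatic dissociation and a Percoll gradient, so the tissue and its way of preparation cannot be told apart. The gate did not separate macrophages derived from monocytes from resident microglia that had raised their CD45.

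Monocytes that leave the blood for injured tissue become macrophages, and this change is known to alter signal-dependent transcription, antigen presentation, metabolism, lysosomes and the proteins a cell secretes. Immediate early genes and NF-kappaB targets respond to stimuli within minutes to hours, ribosomal and mitochondrial genes set the capacity for protein and energy production, and cell cycle genes mark proliferating cells. In infarcted brain, macrophages are known for clearing debris and for releasing cytokines, growth factors and matrix proteases.

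The 6 libraries held 18529600 to 22623578 counts each over 53801 genes. A gene's level is given in CPM, its count scaled to the total count of the library. edgeR's quasi-likelihood test was fitted to the 13189 genes that passed its filter on low counts, and a gene was a differentially expressed gene (DEG) at a Benjamini-Hochberg adjusted p below 0.05 and an absolute log2 fold change above 1. All adjusted p-values below are of that test. In total 2771 genes, 21.0% of those tested, were DEGs. Of all genes tested 13.1% were upregulated in the brain and 7.86% were downregulated, with a median log2 fold change of 0.06 and quartiles of -0.51 and 0.65. These values are the background for every list below. A gene near absent from 1 group could pass the filter through the other group alone, and its fitted value then entered the list median. The 65 program lists held 1396 genes, of which 1336 were tested, 279 were upregulated and 160 were downregulated.

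Several features of the libraries moved with the groups. Brain replicate 1 stood apart: the median absolute log2 difference in CPM over the tested genes was 0.352 and 0.350 between it and the other brain libraries, against 0.221 between those, and it ranged from 0.29 to 0.39 among the stroke blood libraries. Mitochondrial ribosomal RNA took 0.723%, 0.355% and 0.715% of the counts in stroke blood against 0.131%, 0.077% and 0.095% in the brain. Among protein-coding genes outside the ribosomal and mitochondrial lists, the median log2 fold change was -0.49 for genes whose longest transcript had up to 1000 bases (399 genes) and 0.24 for those of 3001 to 5000 bases (4048 genes). An edgeR fit with an offset for transcript length and GC content was therefore added after the values were seen, and it is given below for the lists whose calls it changed most.

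Marker lists of other cells moved as well. All 9 tested markers of erythroid cells and 12 of 14 of platelets and megakaryocytes were downregulated in the brain, where their summed levels were 4.16 to 14.5 CPM and 45.2 to 88.7 CPM, against 13810 to 18470 CPM and 409.8 to 527.7 CPM in stroke blood. Upregulated were 12 of 14 tested microglia markers (5314, 6557 and 10660 CPM in the brain, 3162 to 3887 CPM in stroke blood), 9 of 12 dendritic cell markers (818.7 to 1103 CPM against 133.2 to 259.9 CPM), 7 of 11 neutrophil markers (1264 to 1881 CPM against 648.6 to 1137 CPM) and 9 of 22 T and NK cell markers (1199 to 2109 CPM against 379 to 1251 CPM). Among neutrophil markers Ly6g itself stood at 0.32, 0 and 0.648 CPM in the brain and was not tested. Of 11 tested markers of border-associated macrophages 7 were upregulated and 2 were downregulated (median log2 fold change 2.28), and their sum was 1600 to 2032 CPM in the brain and 1909 to 3214 CPM in stroke blood. Of 9 astrocyte markers 5 passed the filter on low counts, and 4 of these were upregulated. The astrocyte list summed to 8.85, 14.3 and 24.1 CPM in the brain and to 1.02 to 1.69 CPM in stroke blood. Slc1a3, an astrocyte glutamate transporter gene, was at 2.40, 6.45 and 17.5 CPM with no count in stroke blood, and Gfap was at 0.0533, 0.398 and 1.11 CPM. Of 5 tested oligodendrocyte markers 2 were upregulated (275.5 to 316 CPM against 287.9 to 460.9 CPM), and of 6 tested endothelial and mural markers 2 were upregulated and 2 were downregulated (58.9 to 85.3 CPM against 60.5 to 86.2 CPM). The endothelial receptor gene Kdr was at 4.10, 5.75 and 8.61 CPM in the brain, while Cldn5 was at 0 in all 6 libraries. Neuronal markers summed to at most 1.43 CPM in the brain, and none of 11 B and plasma cell markers was a DEG by edgeR or DESeq2, with 2 at an unadjusted p below 0.05. Choroid plexus markers summed to 252.5, 31.5 and 113.4 CPM in the brain and to at most 1.03 CPM in stroke blood. Of the 15 genes that define monocytes and macrophages, 3 were upregulated, 1 was downregulated and 11 were not DEGs, among them Csf1r, Adgre1, Spi1 and Ptprc. This list summed to 54260 to 60030 CPM in the brain and to 104600 to 114400 CPM in stroke blood. In bulk libraries, fewer cells of a type and less RNA per cell cannot be told apart, and the part of other cells in the results below was not tested except where values are given.

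**Figure D1:**
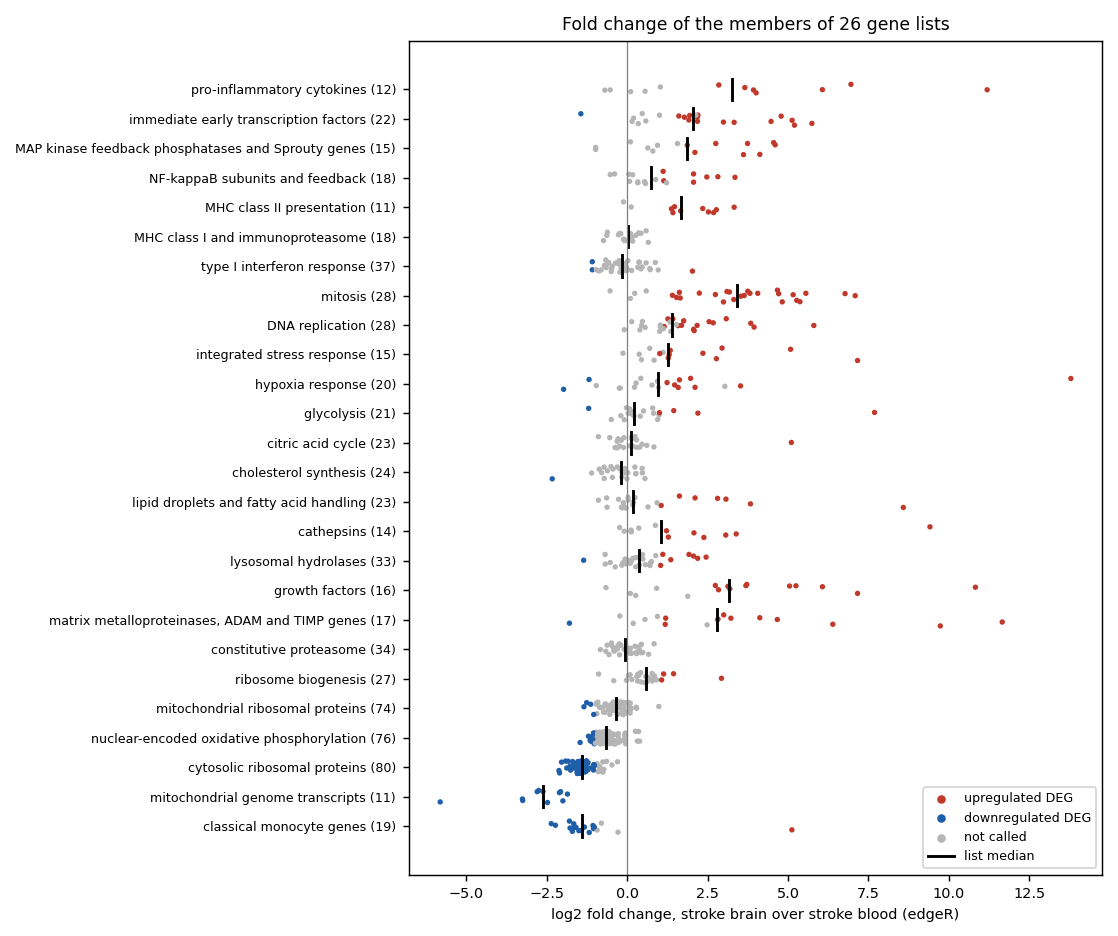
Fold change of the tested members of 26 gene lists. The x axis is the log2 fold change of stroke brain over stroke blood from edgeR, each point is a gene, black bars are list medians, and the number of tested members stands after each list name. The medians run from -2.62 for the mitochondrial genome to 3.43 for mitosis. Some points far to the right, such as Vegfa, belong to genes with no count in stroke blood. The fitted position of such genes is not a measured fold. Others, such as Spp1 with 23, 37 and 12 counts, belong to genes that were counted in stroke blood.

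Several lists of genes of signal-dependent transcription held many upregulated members in the brain libraries. Only the brain cells were dissociated with enzymes, and the part of this preparation in the values was not tested. Of 22 immediate early transcription factors, which are switched on directly by signalling without new protein synthesis, 14 were upregulated and 1 was downregulated, with a median log2 fold change of 2.04. Of 12 tested pro-inflammatory cytokines and enzymes 7 were upregulated (median 3.25), of 15 MAP kinase phosphatases and Sprouty genes, which limit MAP kinase signalling, 8 were upregulated (median 1.87), and of 18 NF-kappaB subunits and feedback genes 7 were upregulated (median 0.73). None of the last 3 lists had a downregulated member, but the offset fit called 2 of the MAP kinase feedback genes downregulated. Without brain replicate 1, each of these 3 lists had 1 downregulated member, and the NF-kappaB median was 0.49.

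Egr1, a zinc finger factor induced by growth factor signals, was at 356, 583 and 710 CPM in the brain libraries and at 19.7, 16.3 and 17.8 CPM in stroke blood (log2 fold change 4.79 ± 0.28 SE, adjusted p = 1.14e-05). Egr2, a relative of Egr1, was at 27.0, 44.7 and 50.9 CPM against 1.54, 1.30 and 0.108 CPM (5.20 ± 0.60, adjusted p = 0.000339). Neither gene's brain and stroke blood groups overlapped. Egr1 varied among the sham blood libraries, at 179, 11.6 and 7.36 CPM. The AP-1 subunits Fos (1.61 ± 0.30) and Junb (2.18 ± 0.17) rose from levels in stroke blood of 871 to 1170 CPM and 534 to 715 CPM. Atf3, a stress-induced repressor, stood at 888 to 967 CPM in the brain and at 67.8 to 92.3 CPM in stroke blood (3.33 ± 0.17, adjusted p = 4.85e-06). The orphan nuclear receptor gene Nr4a2 was at 149, 34.5 and 19.3 CPM in the brain and at 0.772 to 1.35 CPM in stroke blood (5.74 ± 0.79, adjusted p = 0.000825), so its groups did not overlap although brain replicate 1 was far above the other brain libraries. Klf2, a factor associated with monocyte quiescence, was the downregulated member (-1.44 ± 0.41, adjusted p = 0.025). Its groups overlapped, with 160 CPM in brain replicate 1 and 159 CPM in stroke blood replicate 2, and it was at 49.5 and 70.9 CPM in the other brain libraries. Junb shares exonic bases with a gene on the opposite strand, and since the strand setting of the counting is not stated, its value is less certain.

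The NF-kappaB DEGs included feedback inhibitors and a subunit. Tnfaip3, which encodes the ubiquitin-editing inhibitor A20, was at 367, 203 and 198 CPM in the brain and at 22.3, 26.3 and 18.9 CPM in stroke blood (3.35 ± 0.27, adjusted p = 4.85e-05). Nfkbid (2.82 ± 0.23) and Nfkbia (1.12 ± 0.21), which encode IkappaB proteins, were upregulated too. Nfkb1, the p50 subunit, had overlapping groups and was not a DEG (-0.39 ± 0.15, adjusted p = 0.0764). Rela, the p65 subunit, was upregulated at 1.14 ± 0.15.

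Osm, an interleukin 6 family cytokine, was at 590, 683 and 562 CPM in the brain and at 10.2, 5.94 and 8.36 CPM in stroke blood (6.07 ± 0.25, adjusted p = 1.31e-06). Ptgs2, the inducible cyclooxygenase, was at 117, 94.6 and 79.0 CPM against 0.579, 0.696 and 0.810 CPM (6.96 ± 0.27, adjusted p = 9.55e-07). Il1a had at most 3 counts in each stroke blood library and 93.2, 36 and 44.7 CPM in the brain, so it was at least 390-fold higher there. Il1b stood at 1340 to 1710 CPM against 57.3 to 127 CPM (3.93 ± 0.30), although it shares exonic bases with an antisense transcript. Tnf, at 23.4, 16.3 and 15.7 CPM against 11.9, 3.52 and 8.85 CPM, did not pass the test (1.03 ± 0.41, adjusted p = 0.0834), although its groups did not overlap. Il12a, Il12b and Il23a did not pass the filter on low counts, and Il12b was at 7.94 CPM in brain replicate 1 but at 0.442 and 2.82 CPM in the other brain libraries. The inhibitors of the same pathway were also upregulated: Il1rn, the interleukin 1 receptor antagonist, by 3.01 ± 0.21 and the decoy receptor Il1r2 by 4.33 ± 0.56, the latter with 308 CPM in brain replicate 1 and 84.5 and 74.1 CPM in the others. Nlrp3, the inflammasome sensor, was not a DEG (0.74 ± 0.55, adjusted p = 0.341), and Casp4 was downregulated (-1.06 ± 0.18).

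The feedback phosphatases Dusp1 (brain 2890 to 3760 CPM, stroke blood 657 to 822 CPM, 2.11 ± 0.18) and Dusp2 (153 to 171 CPM against 3.90 to 17.6 CPM, 3.74 ± 0.46) and the receptor signalling inhibitor Spry2 (14.2 to 37.1 CPM against 0.510 to 1.54 CPM, 4.55 ± 0.50) were all upregulated without overlap. Across all genes named by a shared symbol stem, in 69 families of at least 15 tested members, Dusp had the highest share of upregulated members, 7 of 19 (36.8%), with 3 downregulated. Among cytokine signalling genes, 8 of 20 JAK, STAT and SOCS genes were upregulated and none was downregulated. These included the feedback inhibitors Cish (3.71 ± 0.40) and Socs3 (1.20 ± 0.16), and the kinase Pim1 (222 to 543 CPM against 22.3 to 59.3 CPM, 2.92 ± 0.42). The length and GC offset left 5 of the 20 upregulated.

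Promoter sequences of the lists were read from RefSeq (GRCm38.p6), which held a window of 250 bases before to 50 after a start site for 1095 of the 1396 list genes and 27025 genes in all. The kappaB motif, searched as its usual consensus on either strand, stood in 10 of 15 NF-kappaB list genes with a window (66.7%) and in 5.14% of all genes, and in 2 of 12 cytokine genes. The AP-1 motif TGANTCA stood in 0 of 18 immediate early genes and in 8.97% of all genes. A match is only a description of the letters in the window. The 150 bases before the start of 2 upregulated genes are shown in lower case with kappaB matches in capitals, Tnfaip3 with 2 matches and Il6, a cytokine at 8.10, 6.06 and 3.56 CPM in the brain against 1.40, 0.0928 and 0.702 CPM in stroke blood, with 1.
Tnfaip3, chr10:19015411-19015560, minus strand: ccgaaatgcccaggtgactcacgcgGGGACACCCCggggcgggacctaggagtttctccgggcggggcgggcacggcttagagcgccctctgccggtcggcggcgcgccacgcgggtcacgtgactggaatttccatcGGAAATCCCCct
Il6, chr5:30012964-30013113, plus strand: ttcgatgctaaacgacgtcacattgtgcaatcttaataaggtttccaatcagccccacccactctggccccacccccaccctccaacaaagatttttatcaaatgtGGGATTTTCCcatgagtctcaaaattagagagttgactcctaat

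**Figure D2:**
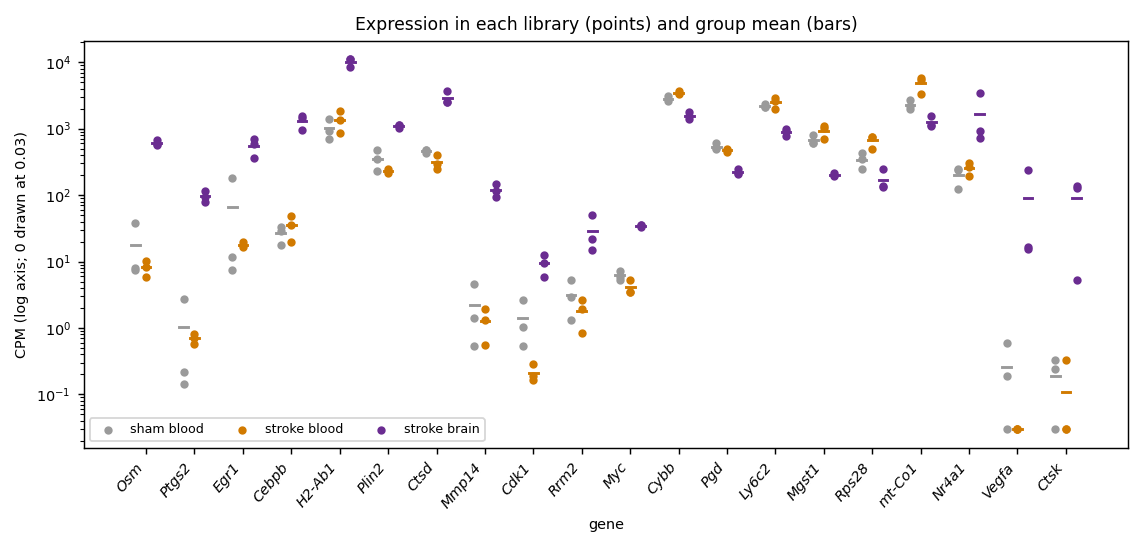
Expression of 20 genes in each library. The y axis is CPM on a log scale with 0 drawn at 0.03, points are the 3 libraries of sham blood (grey), stroke blood (orange) and stroke brain (purple), and bars are group means. Osm, Ptgs2 and Egr1 in stroke brain lie above every stroke blood library, Ly6c2, Mgst1 and Rps28 lie below, and Nr4a1 and Vegfa show brain replicate 1 far above the other brain libraries.

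Interferon-inducible and antigen presentation lists gave different counts. Of 37 type I interferon response genes 1 was upregulated and 2 were downregulated (median -0.15), and the groups of the central members overlapped: Isg15 was at 59.4, 61.5 and 67.3 CPM in the brain and 59.9, 43.7 and 88.5 CPM in stroke blood (-0.19 ± 0.25, adjusted p = 0.603), and Irf7, the regulator of the response, was at 465 to 506 CPM against 444 to 545 CPM (-0.23 ± 0.15, adjusted p = 0.273). Ifitm3, a membrane restriction factor, was downregulated (-1.09 ± 0.19). Of 14 interferon-gamma inducible GTPases 4 were upregulated, Iigp1 the most (5.86, 22.6 and 13.2 CPM against 0.917, 0.417 and 0.270 CPM, 4.53 ± 0.63). None of 18 MHC class I and immunoproteasome genes was a DEG by edgeR or DESeq2 (median 0.01, 6 at an unadjusted p below 0.05), H2-D1 among them (0.11 ± 0.16, adjusted p = 0.647). None of 34 constitutive proteasome genes was a DEG by either tool (median -0.07, 14 at an unadjusted p below 0.05). The interferon element GAAANNGAA stood in 17 of 28 type I interferon genes with a window (60.7%), in 9 of 9 GTPase genes and in 9.76% of all genes.

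MHC class II genes, by contrast, were upregulated in 9 of 11 cases with a median of 1.66. H2-Ab1, a beta chain, was at 11100, 11000 and 8460 CPM in the brain and at 855, 1830 and 1330 CPM in stroke blood (2.77 ± 0.28, adjusted p = 0.000162). Ciita, the master regulator of the class, was at 140, 118 and 89.9 CPM against 26.4, 38.4 and 51.4 CPM (1.42 ± 0.27, adjusted p = 0.00398). The costimulatory list went the same way, with 9 of 14 tested members upregulated and none downregulated (median 1.73). Cd83 was at 2140, 787 and 735 CPM against 16.6, 11.3 and 9.39 CPM (6.46 ± 0.49), Cd80, a ligand of CD28, at 13.6 to 26.1 CPM against 3.29 to 4.97 CPM (2.10 ± 0.32), and Cd274, which encodes the checkpoint ligand PD-L1, at 52.0 to 55.7 CPM against 5.45 to 14.1 CPM (2.28 ± 0.31). The groups of Cd40 overlapped (41.2, 57.9 and 50 CPM against 36.7, 50.4 and 49.5 CPM, -0.03 ± 0.21, adjusted p = 0.93). Dendritic cell markers were upregulated in the same libraries, for example Zbtb46 at 19.8 to 28.6 CPM against 0.216 to 1.53 CPM, and Itgax, which encodes the CD11c that the sort selected against, at 78.9 to 141 CPM against 11 to 19.4 CPM. Their part in the class II values was not tested.

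Cytosolic ribosomal protein genes were lower in the brain libraries. Of 80 tested cytosolic ribosomal proteins 67 were downregulated and none was upregulated, with a median log2 fold change of -1.39 and quartiles of -1.54 and -1.23, and 74 of them lay lower in the brain without overlap between groups, as did 2289 of all 13189 tested genes. The list summed to 25630, 18110 and 17850 CPM in the brain and to 49570, 36020 and 51710 CPM in stroke blood. Rps28, a small subunit protein, was at 243, 134 and 137 CPM against 747, 498 and 759 CPM (-2.12 ± 0.27, adjusted p = 0.000584). Rpl3, a large subunit protein, was at 444 to 574 CPM against 723 to 875 CPM and missed the fold change threshold (-0.82 ± 0.16). By symbol stem, Rpl (39 of 50) and Rps (29 of 43) had the highest shares of downregulated genes of the 69 families.

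The size of this difference moved with other features of the libraries. Sham blood summed to 25710 to 33500 CPM over the ribosomal list, between the brain and stroke blood libraries, with sham replicate 2 close to brain replicate 1. With the length and GC offset the median was -1.18 and 55 members were downregulated, and without brain replicate 1 the count was 69. Processed pseudogenes, many of which copy ribosomal and other short messages and can take their reads, were downregulated in 156 of 591 cases (26.4%). The elongation factor Eef2 was downregulated (-1.17 ± 0.18), and so were Eif3f (-1.77 ± 0.19) and Eif3h (-1.41 ± 0.18), subunits of an initiation complex, within a list of 31 translation factors with 6 downregulated members and a median of -0.17.

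Genes for assembling ribosomes did not follow the ribosomal proteins. Of 27 ribosome biogenesis genes 4 were upregulated (14.8%, against 13.1% of all genes tested) and none was downregulated (median 0.58). In the offset fit 3 were upregulated (median 0.28). Myc, the transcription factor that drives this program, was at 36, 33.3 and 35.1 CPM against 3.52, 5.24 and 3.51 CPM (2.93 ± 0.24, adjusted p = 5.33e-05), and Gnl3, a nucleolar GTPase, rose by 1.44 ± 0.24. Ncl, the nucleolar protein nucleolin, was not a DEG (0.35 ± 0.19, adjusted p = 0.18). Aminoacyl-tRNA synthetases had 2 upregulated members of 20 (median 0.39), and none in the offset fit (median 0.14). Core spliceosome genes had 1 upregulated and 2 downregulated members of 26.

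**Figure D3:**
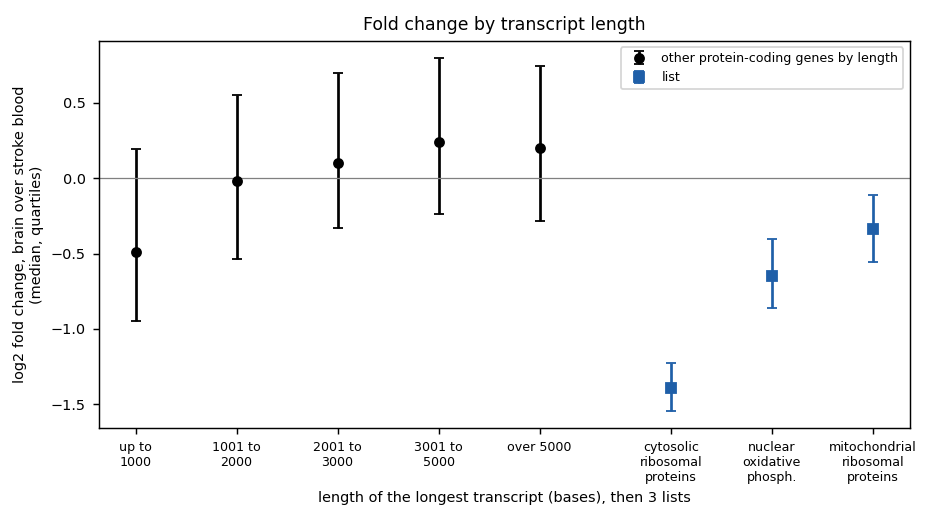
Log2 fold change of stroke brain over stroke blood by transcript length. Black points are medians, with quartiles as bars, of tested protein-coding genes outside the lists of ribosomal and mitochondrial genes, grouped by the length of their longest transcript, and blue squares are 3 lists. The shortest group has a median of -0.49, below the other length groups, and cytosolic ribosomal proteins have a median of -1.39.

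Energy metabolism moved unevenly. All 11 tested genes of the mitochondrial genome were downregulated (median -2.62, and -1.74 with the length and GC offset), with sums of 5949, 3005 and 3421 CPM for the brain and 17600, 11600 and 19160 CPM for stroke blood. mt-Co1, a subunit of cytochrome oxidase, was at 1540, 1110 and 1130 CPM against 5420, 3320 and 5810 CPM (-2.11 ± 0.25, adjusted p = 0.000364). Sham blood summed to 6314 to 9685 CPM over this list, so the stroke blood libraries also lay above sham blood. Nuclear-encoded oxidative phosphorylation genes had 12 downregulated members of 76 and none upregulated (median -0.65), which became 7 members and -0.36 with the length and GC offset. Mitochondrial ribosomal proteins (4 of 74 downregulated, median -0.34), the citric acid cycle and fatty acid oxidation had few DEGs: of 23 citric acid cycle genes 1 was upregulated and of 18 fatty acid oxidation genes none was a DEG by edgeR or DESeq2, with 7 at an unadjusted p below 0.05. The offset fit called 3 fatty acid oxidation genes downregulated (median -0.32), and 6 mitochondrial ribosomal genes downregulated and 1 upregulated. The citric acid cycle member was Acod1, which makes itaconate, at 29.4, 30.1 and 19.2 CPM against 0.772, 0.464 and 0.810 CPM (5.11 ± 0.35, adjusted p = 2.56e-05).

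Of 21 glycolysis genes 4 were upregulated and 1 was downregulated (median 0.21). Pfkfb3, which makes an activator of phosphofructokinase, was at 103, 93.8 and 96.2 CPM in the brain against 12.3, 18.7 and 26.1 CPM (2.20 ± 0.27, adjusted p = 0.000447), and Pfkl, the liver type phosphofructokinase, was at 162 to 186 CPM against 55.1 to 61.5 CPM (1.45 ± 0.15). The offset fit called 2 glycolysis genes upregulated. Hk2, an entry enzyme, had overlapping groups (0.04 ± 0.19, adjusted p = 0.907). Ldha, which makes lactate, was higher without overlap but below the fold change threshold (0.82 ± 0.15, adjusted p = 0.00371), and so was the glucose transporter gene Slc2a1 (0.99 ± 0.17). The pentose phosphate pathway, which supplies NADPH, went the other way: 2 of 7 members were downregulated and none was upregulated (median -0.95), with Pgd at 243, 212 and 206 CPM against 497, 479 and 444 CPM (-1.26 ± 0.14). With the offset 4 of them were downregulated. Its user in the oxidative burst, the NADPH oxidase subunit gene Cybb, fell from 3290 to 3680 CPM to 1410 to 1760 CPM (-1.31 ± 0.15, adjusted p = 0.00035), while the other 6 tested genes of that complex were not DEGs.

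Hypoxia-responsive genes had 8 upregulated and 2 downregulated members of 20 (median 0.96). Hif1a itself was upregulated (1.48 ± 0.19). Bhlhe40, a transcriptional repressor, was at 573, 302 and 267 CPM against 36.4, 35.9 and 16.9 CPM (3.53 ± 0.37). Vegfa, the vascular growth factor, had no count in the stroke blood libraries and was at 242, 16.7 and 15.6 CPM in the brain, at least 615-fold higher on average, a value carried mostly by brain replicate 1. Bnip3l (-1.19 ± 0.15) and Ndrg1 (-1.98 ± 0.18) were downregulated. The short hypoxia element ACGTG stood in 13 of 16 list genes with a promoter window (81.2%) and in 21.8% of all genes.

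Stress programs differed in extent. The integrated stress response, which is set off by phosphorylation of eIF2 and carried by ATF4, had 9 upregulated members of 15 tested and none downregulated (median 1.28, 8 members with the length and GC offset). Cebpb, a C/EBP factor central to macrophage inflammation, was at 957, 1560 and 1460 CPM in the brain against 36, 20 and 49.1 CPM (5.08 ± 0.37, adjusted p = 3.22e-05). Gdf15, a stress-induced cytokine, was at 17.3, 18.5 and 14.7 CPM against 0.0965, 0 and 0.216 CPM (7.16 ± 0.60). Both were clear of overlap. Ddit3, which encodes CHOP, rose by 1.28 ± 0.28, and the serine synthesis gene Phgdh by 2.95 ± 0.31. Slc7a11, the cystine transporter, was at 20.7, 22.2 and 22.5 CPM against 8.30, 4.27 and 10.6 CPM (1.34 ± 0.33, adjusted p = 0.014). The CARE motif TGATGNAA, bound by ATF4 dimers, stood in 6 of 16 list genes with a window (37.5%) and in 4.51% of all genes. Of the 9 upregulated list genes with a window 2 held it (22.2%). Slc7a11 held 2 matches, in capitals in the 150 bases before its start.
Slc7a11, chr3:50443614-50443763, minus strand: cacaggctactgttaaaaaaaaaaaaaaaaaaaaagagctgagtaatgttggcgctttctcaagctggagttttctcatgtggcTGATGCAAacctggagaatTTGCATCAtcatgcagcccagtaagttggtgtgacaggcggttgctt

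The unfolded protein response had 1 upregulated member of 18, the chaperone gene Hspa5 at 1610 to 1960 CPM against 396 to 688 CPM (1.45 ± 0.21), and Xbp1 was not a DEG (-0.58 ± 0.16). Heat shock chaperones had 2 of 17 (11.8%, against 13.1% of all genes tested), led by Hspa1a (30.7 to 73.9 CPM against 5.89 to 9.07 CPM, 2.75 ± 0.34). The chaperone list summed to 3528 to 4518 CPM in the brain and 2695 to 3241 CPM in stroke blood. Sham blood summed to 6403, 4149 and 2849 CPM over it. Of 18 NRF2 antioxidant genes 5 were upregulated (median 0.29): Gclc, which limits glutathione synthesis, was at 34.1 to 37.9 CPM against 3.01 to 6.66 CPM (2.77 ± 0.30), whereas Hmox1 was at 156, 208 and 210 CPM against 149, 140 and 156 CPM and was not a DEG (0.22 ± 0.17, adjusted p = 0.36). Of 14 iron handling genes 5 were upregulated and 2 were downregulated. The iron exporter gene Slc40a1 was at 12.2, 41.8 and 46.5 CPM against 0, 3.11 and 0.756 CPM (4.54 ± 0.96), and Fth1, the ferritin heavy chain, was at 7000 to 8090 CPM against 2740 to 3330 CPM (1.21 ± 0.16). Mt1, a metallothionein, was at 83.4 to 122 CPM against 13.7 to 33.5 CPM (2.02 ± 0.32). Glucocorticoid-responsive genes had 6 upregulated members of 11, Fkbp5 by 2.26 ± 0.24. Fkbp5 was at 24.4 to 36.2 CPM in the brain, 5.45 to 5.99 CPM in stroke blood and 15.2 to 27.5 CPM in sham blood. Tsc22d3 (GILZ), one of the most direct targets, was lower and below the fold change threshold (-0.94 ± 0.19, adjusted p = 0.00532).

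**Figure D4:**
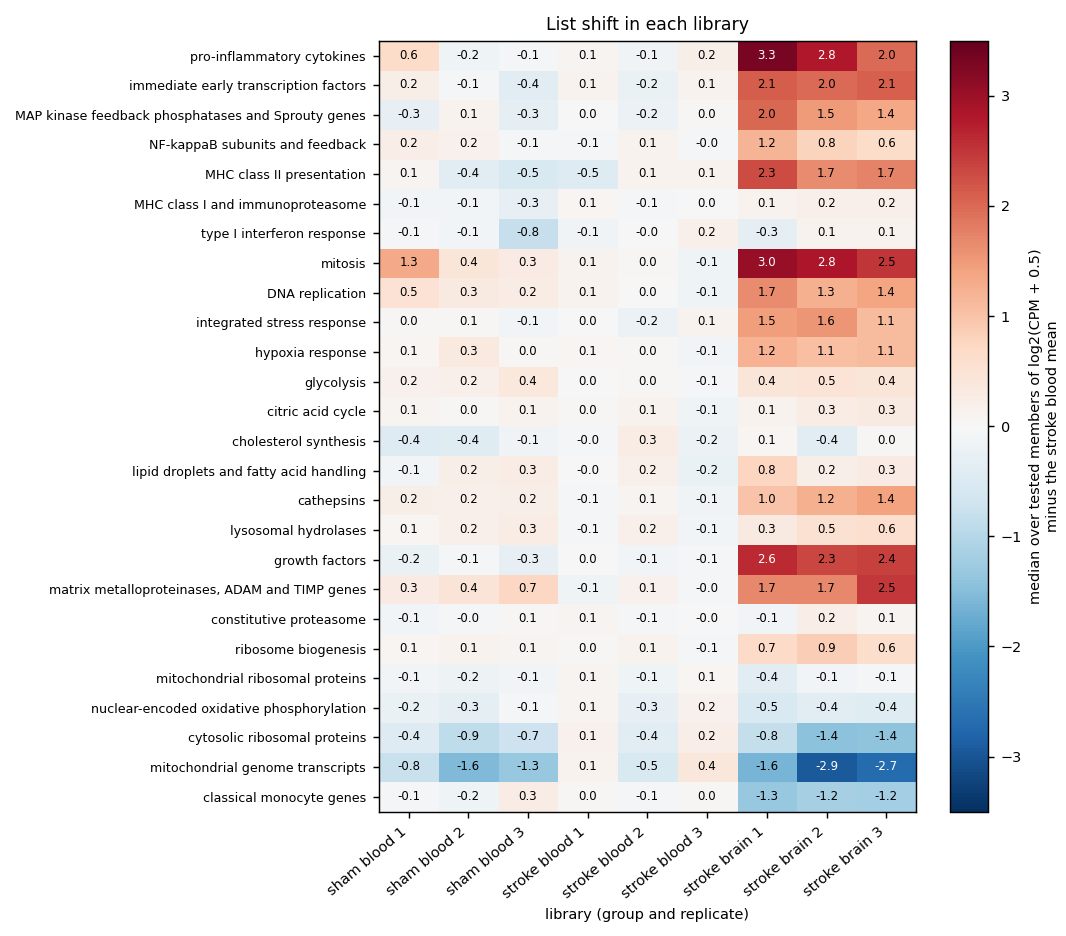
List shift in each of the 9 libraries. Each cell is the median, over the tested members of a list, of log2(CPM + 0.5) minus the stroke blood mean of the gene, with libraries on the x axis and 26 lists on the y axis. Mitosis stands at 3.05, 2.82 and 2.49 in the brain libraries, and the cytosolic ribosomal proteins at -0.83, -1.43 and -1.42, with sham blood at -0.44, -0.88 and -0.71.

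Cell cycle genes were upregulated from low levels. Of 28 mitosis genes 24 were upregulated and none was downregulated (median 3.43), and of 28 DNA replication genes 15 were upregulated and none was downregulated (median 1.39). The mitosis list summed to 482.1, 384.7 and 280.8 CPM in the brain against 98.1 to 132.6 CPM in stroke blood and 117.4 to 189.9 CPM in sham blood. Top2a, a topoisomerase of dividing cells, was at 31.1, 29.7 and 13.3 CPM against 1.88, 1.07 and 2.37 CPM (3.64 ± 0.43, adjusted p = 0.00039). Ccnb1, the mitotic cyclin, was at 22, 17.5 and 14.7 CPM against 0.579, 0.417 and 0 CPM (5.56 ± 0.65), and its kinase Cdk1 at 12.7, 5.88 and 9.62 CPM against 0.289, 0.186 and 0.162 CPM (5.27 ± 0.50, adjusted p = 0.000128). Neither overlapped. Mki67, the standard proliferation marker, rose (1.65 ± 0.39, adjusted p = 0.0122), from 2.60 to 4.97 CPM to 8.84 to 20.2 CPM. The replication genes Rrm2, a ribonucleotide reductase subunit (50.2, 14.7 and 21.6 CPM against 2.61, 0.835 and 1.94 CPM, 3.84 ± 0.55), and Mcm2, a helicase subunit (26.9 to 42.6 CPM against 6.04 to 7.98 CPM, 2.08 ± 0.25), were upregulated, while Pcna, the sliding clamp, was at 73.8 to 80.8 CPM against 40.7 to 58.4 CPM and was not a DEG (0.48 ± 0.17, adjusted p = 0.0654). Without brain replicate 1 the counts were 22 mitosis and 15 replication genes. The G1 cyclin Ccnd1 (4.58 ± 0.43) and the inhibitor Cdkn1a, which encodes p21 and was at 629, 406 and 348 CPM against 54.3, 47.8 and 60.8 CPM (2.92 ± 0.24), were both upregulated, and the factor E2f2 was downregulated (-1.29 ± 0.30).

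The E2F motif TTTNNCGC stood in 11 of 22 replication genes with a window (50%) and in 5.93% of all genes. The CHR element TTTGAA stood in 19 of 25 mitosis genes (76.0%) against 20.2% of all genes, and the CCAAT box in 19 of 25 (76.0%) against 41.1%. With only the bases before the start site counted, 9 of the 25 held the CHR (36% against 18.3%). Mcm6, a helicase subunit (2.06 ± 0.26), is shown with its 3 E2F matches in capitals, a pair of which overlap on opposite strands, and Cdk1 with 2 CHR elements and 2 CCAAT boxes in capitals, on either strand.
Mcm6, chr1:128359706-128359855, minus strand: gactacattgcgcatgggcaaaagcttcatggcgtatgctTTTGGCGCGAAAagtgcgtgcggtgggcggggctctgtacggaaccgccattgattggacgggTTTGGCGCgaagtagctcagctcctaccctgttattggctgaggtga
Cdk1, chr10:69352913-69353062, minus strand: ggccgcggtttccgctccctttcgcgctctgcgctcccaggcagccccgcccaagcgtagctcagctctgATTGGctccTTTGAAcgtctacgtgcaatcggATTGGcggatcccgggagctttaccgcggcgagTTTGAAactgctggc

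Histone genes went against the other cell cycle genes. Of 23 tested genes with the stem Hist, which encode mostly replication-dependent histones whose messages lack a poly(A) tail, 13 were downregulated and none was upregulated (median -1.54, and -1.40 with 11 genes with the length and GC offset). Hist1h2bc was at 8.58, 6.45 and 11 CPM against 24.7, 22.4 and 33.4 CPM, and Hist1h4c at 1.39, 0.840 and 1.99 CPM against 6.32, 5.33 and 6.04 CPM. Their groups did not overlap. By list shift sham blood lay between, at -0.63, -0.23 and -0.40 from stroke blood. Hist1h4c was at 2.35 to 3.19 CPM in sham blood, but Hist1h2bc was at 6.03, 23.7 and 36.3 CPM in sham replicates 1, 2 and 3. Erythroid markers summed to 1224, 34200 and 30440 CPM in the same sham libraries, and their part in the histone values was not tested. Most histone genes have near-identical copies, so the split of reads among them is uncertain.

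Lipid genes held DEGs for storage and efflux and few for synthesis. None of 24 cholesterol synthesis genes was upregulated and 1 was downregulated (median -0.20), and Sqle, an early oxygenase of the pathway, had overlapping groups. The offset fit called 4 cholesterol genes downregulated. Plin2, the coat protein of lipid droplets, was at 1130, 1140 and 1040 CPM in the brain against 229, 246 and 213 CPM (2.11 ± 0.14, adjusted p = 2.3e-05). Of 23 tested lipid droplet and fatty acid genes 7 were upregulated, among them G0s2, an inhibitor of lipolysis, at 49.3, 155 and 186 CPM against 7.14, 12.7 and 4.86 CPM (3.83 ± 0.52). Apoe, a lipid carrier (1.95 ± 0.22), Abcg1, a cholesterol exporter (1.77 ± 0.20), and Ch25h, which makes 25-hydroxycholesterol and was at least 30.5-fold higher with no count in stroke blood, were upregulated within a list of LXR targets and sterol genes that had 4 upregulated and 1 downregulated member of 16. In the offset fit 3 of these were upregulated and 3 downregulated, and of the lipid droplet list 5 were upregulated and 2 downregulated. Lpl, a lipase, had overlapping groups (-0.61 ± 0.35, adjusted p = 0.219).

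Lysosomal genes rose in part. Of 14 cathepsins 7 were upregulated and none was downregulated (median 1.05), against 7 upregulated and 1 downregulated of 33 other hydrolases (median 0.37), 2 of 18 V-ATPase subunits, and 1 upregulated and 2 downregulated of 21 lysosomal membrane genes (median -0.06). Ctsd, an aspartic protease, was at 2550, 2500 and 3740 CPM against 289, 249 and 403 CPM (3.06 ± 0.26, adjusted p = 5.85e-05), Ctsb, a cysteine protease, at 7120 to 9060 CPM against 2470 to 3320 CPM (1.28 ± 0.18), and Ctsl at 224 to 350 CPM against 53.5 to 65.4 CPM (2.08 ± 0.21). Ctsk and the V-ATPase subunit gene Atp6v0d2 varied among the brain libraries, at 5.33, 128 and 139 CPM and at 1.97, 20.7 and 13.8 CPM, while stroke blood held at most 0.325 and 0 CPM. In both, brain replicate 1 was the lowest. Cd63, a tetraspanin of late endosomes, was at 228, 237 and 385 CPM against 1.06, 12.2 and 1.94 CPM (5.65 ± 0.79). The regulator Mitf had overlapping groups (0.29 ± 0.40), Lamtor4 was downregulated (-1.35 ± 0.20), and autophagy genes had 2 upregulated members of 28 (median 0.00), against none upregulated and 2 downregulated in the offset fit (median -0.36). With the length and GC offset the cathepsin count was 6 and the hydrolase counts were 4 upregulated and 2 downregulated.

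The CLEAR motif TCACGTGA, bound by TFEB, stood in 2 of 10 cathepsin genes with a window (20%), in 1 of 28 other lysosomal hydrolase genes (3.57%), in 3 of 18 V-ATPase genes (16.7%) and in 1.12% of all genes. Of the 5 upregulated cathepsin genes with a window 1 held it, Ctsd, and it is shown in capitals before its start.
Ctsd, chr7:142387828-142387977, minus strand: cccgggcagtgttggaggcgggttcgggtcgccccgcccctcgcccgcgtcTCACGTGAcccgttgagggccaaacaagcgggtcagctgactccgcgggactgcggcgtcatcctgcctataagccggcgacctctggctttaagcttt

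Genes for secreted growth factors and matrix proteases held many upregulated DEGs. Of 25 growth factor genes 16 passed the filter on low counts, of which 11 were upregulated and none was downregulated (median 3.16). The list summed to 59.9 to 67.0 CPM in stroke blood, so genes low there could pass the filter through the brain libraries alone. Without brain replicate 1, 11 were upregulated and 1 was downregulated. Spp1, osteopontin, was at 3830, 1540 and 1770 CPM against 1.11, 1.72 and 0.648 CPM (10.83 ± 0.54, adjusted p = 4.85e-06), Igf1, insulin-like growth factor, at 19.7, 11.7 and 26.4 CPM against 0.338, 0.325 and 0.702 CPM (5.25 ± 0.47), and Hbegf, an EGF receptor ligand, at 7.30, 3.18 and 1.94 CPM against 0.0965, 0.510 and 0.216 CPM (3.72 ± 0.75). All 3 were clear of overlap. Of 20 matrix metalloproteinases, ADAM and TIMP genes 17 passed the filter, of which 10 were upregulated and 1 was downregulated (median 2.80). In the offset fit 7 were upregulated. Members with no count in stroke blood, such as Timp1 and Adamts1, passed the filter through the brain libraries alone, and their fitted values enter the median. Mmp14, a membrane collagenase, was at 92.0, 145 and 117 CPM against 1.30, 0.557 and 1.94 CPM (6.39 ± 0.41, adjusted p = 2e-05), Adam8, a sheddase, at 355 to 463 CPM against 14.5 to 34.1 CPM (4.12 ± 0.35), and the inhibitor Timp1 was at 26.2, 17.8 and 18 CPM with no count in stroke blood, at least 139-fold higher. Mmp8, a collagenase of myeloid granules, was downregulated (-1.80 ± 0.16).

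Of 25 matrix genes 11 did not pass the filter on low counts. The collagen genes Col1a1 and Col3a1 were high in brain replicate 1 alone. Col1a1 was at 224, 0.884 and 0 CPM in the brain and Col3a1 at 207, 0.972 and 0 CPM, and neither had a count in stroke blood. Fn1, fibronectin, fell from 2090 to 3010 CPM to 624 to 1370 CPM (-1.59 ± 0.29). Sparc, a matrix-binding protein that is also a microglia marker, was at 227, 225 and 540 CPM against 0.145, 0.417 and 0 CPM. Among coagulation genes F13a1 was downregulated (-1.06 ± 0.22) and Plaur, the urokinase receptor, was upregulated (535 to 1080 CPM against 257 to 339 CPM, 1.18 ± 0.26), with 5 upregulated and 1 downregulated member of 12. In the prostaglandin pathway the synthase Hpgds was at 48.7, 52.6 and 89.8 CPM against 0.0482, 0.510 and 0 CPM (8.16 ± 0.67), and Alox5ap, the 5-lipoxygenase activator, was downregulated (-1.21 ± 0.15). Nos2 stood at 0, 0.177 and 0.648 CPM in the brain and was not tested, and Ass1, an enzyme that regenerates arginine, was upregulated (1.21 ± 0.26).

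The identity of classical monocytes was lower in the brain. Of 19 classical monocyte genes 15 were downregulated and 1 was upregulated (median -1.42). Ly6c2, which defines the Ly6C high subset, was at 984, 925 and 772 CPM against 2870, 1970 and 2650 CPM (-1.64 ± 0.19, adjusted p = 0.000342), Plac8 at 880 to 1080 CPM against 2000 to 3900 CPM (-1.78 ± 0.25), and Mgst1, a glutathione transferase, at 195 to 213 CPM against 704 to 1100 CPM (-2.36 ± 0.20). Their groups did not overlap. Ccr2, the chemokine receptor of this subset, was lower without overlap and below the fold change threshold (-0.80 ± 0.16, adjusted p = 0.00477). The upregulated member was Thbs1, thrombospondin, at 3300, 1930 and 1490 CPM against 51.4, 74.2 and 47.8 CPM (5.12 ± 0.34). Of 15 tested non-classical monocyte genes 2 were upregulated and 1 was downregulated (median 0.19), with Nr4a1, their lineage factor, at 3400, 735 and 917 CPM against 302, 267 and 191 CPM (2.57 ± 0.52), and Treml4, Ace and Spn not called. The offset fit called 3 of the non-classical genes downregulated.

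Transcription factors of the myeloid lineage moved both ways, with 6 upregulated and 4 downregulated members of 28. Spi1 (PU.1) and Irf8 had overlapping groups (-0.14 ± 0.16 and 0.08 ± 0.18) and Irf4 was downregulated (-1.46 ± 0.26). The microglial factor Sall1 was at 7.30, 6.63 and 21.8 CPM with no count in stroke blood, at least 80.2-fold higher. S100 and granule protein genes divided: S100a4 (-2.23 ± 0.30) was downregulated with S100a6 and Wfdc17, whereas S100a8, S100a9 and the granule genes Ltf and Mpo were upregulated. Neutrophil markers rose in the same libraries, and their part was not tested. S100a9 was at 207, 70.9 and 170 CPM against 3.18, 2.92 and 28.1 CPM (3.54 ± 0.85), and Mpo at 158, 45.0 and 18.9 CPM against 0.289, 0.603 and 1.46 CPM. Csf3r, expressed by neutrophils and monocytes, had overlapping groups (-0.17 ± 0.20).

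Surface receptors moved in both directions. Of 17 C-type lectin receptors 8 were upregulated and 4 were downregulated: Mgl2 (36.4, 42.7 and 42.0 CPM against 0.917, 4.73 and 2.81 CPM, 3.68 ± 0.47) and the damage sensors Clec4d (1.71 ± 0.26) and Clec4e (1.21 ± 0.21) rose, Clec4a1 (-1.72 ± 0.23) and the inhibitory Clec12a (-1.10 ± 0.16) fell, and Clec7a, the beta-glucan receptor, had overlapping groups. The offset fit called 7 lectin receptors upregulated and 2 downregulated. Of 17 integrins and selectin ligands 4 were upregulated and 4 were downregulated, with the homing integrin gene Itga4 lower (-1.12 ± 0.17) and Itga6 higher (2.17 ± 0.26). Inhibitory receptors had 5 upregulated and 2 downregulated members of 19, with Lilr4b at 185 to 360 CPM against 38.3 to 47.7 CPM and Cd300lf at 158 to 194 CPM against 34.0 to 44.0 CPM. Of 20 Toll-like receptors and adaptors 4 were upregulated, Tlr2 by 1.56 ± 0.18. With the length and GC offset 2 Toll-like receptor genes and 2 integrin genes were upregulated. Of 13 Fc gamma receptors and adaptors 1 moved in each direction and Fcgr1 overlapped (0.23 ± 0.24). Actin regulators, which drive migration and uptake, had 1 upregulated and 4 downregulated members of 34, with Coro1a below the fold change threshold (-0.72 ± 0.14).

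Survival and growth restraint genes also moved. The BCL2 family had 5 upregulated and 2 downregulated members of 13: Mcl1, which protects myeloid cells from apoptosis, was at 1180, 584 and 473 CPM against 255, 188 and 330 CPM (1.37 ± 0.34), and Bmf, which promotes apoptosis, fell from 20.8 to 25 CPM to 5.48 to 7.77 CPM (-1.86 ± 0.24). The 3 upregulated Bcl2a1 genes are near-identical copies and are uncertain one by one. In the offset fit 3 members were upregulated and 3 downregulated. Of 20 tested TGF-beta signalling genes 6 were upregulated and 2 were downregulated, led by the repressor Skil (195 to 316 CPM against 17.9 to 24.9 CPM, 3.35 ± 0.24), while the receptors Tgfbr1 (0.89 ± 0.23) and Tgfbr2 (0.75 ± 0.24) stayed below the fold change threshold. Circadian genes had 3 upregulated members of 14, led in level by Nfil3 (226 to 504 CPM against 50.9 to 71.6 CPM, 2.35 ± 0.29), and Arntl had overlapping groups. Without brain replicate 1 the circadian count was 1.

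Some genes were nearly absent from either the brain or the stroke blood libraries. Counting genes with at most 3 counts in every library of one group and at least 1 CPM in every library of the other, 115 were on in the brain and off in stroke blood, 109 of them protein coding, and 27 were on in stroke blood and off in the brain. Sham blood was not part of this rule: 8 of the 115 and 26 of the 27 reached 1 CPM in at least 1 sham blood library, Kif2c (1.07 CPM) and Nuf2 (1.61 CPM) among the 8. Of the 115, 11 were on the marker lists of other cells, and of the 27, 8 were. Those on in the brain included the motor and kinetochore genes Kif2c (at least 39.1-fold higher) and Nuf2 (at least 45.0-fold), the anti-inflammatory cytokine Il10 (at least 13.3-fold), the adhesion molecule Vcam1 (at least 63.0-fold), the glycoprotein Pdpn (at least 51.3-fold) and the transporter Slco2b1 (at least 803-fold), a gene known from microglia. Those on in stroke blood included the platelet lipoxygenase gene Alox12 (at least 270-fold lower in brain libraries). These examples were picked after their values were seen.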

How the data were processed

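CD11c- Ly6G- CD11b+ CD45high cells were amplified with SMART-Seq HT, made into libraries with Nextera XT and sequenced as paired-end 75-base reads on a NextSeq 500. The deposited values were raw read counts per Ensembl gene. Per the study's methods, the authors checked reads with FastQC, aligned them to GRCm38 with HISAT2, counted them with HTSeq and tested them with DESeq2. Versions and the strand setting of the counting are not given in the sources used here. Blood libraries came from separate mice and brain libraries from separate pools.

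The 3 brain and 3 stroke blood libraries entered a fit of counts with edgeR 4.0.16 (filterByExpr, TMM normalization, quasi-likelihood test) in R 4.3.3, with Benjamini-Hochberg adjustment over all 13189 genes tested. A DEG had an adjusted p below 0.05 and an absolute log2 fold change above 1. CPM was a count divided by the library total. List shifts used log2(CPM + 0.5). Tables were made with pandas 2.3.3 and plots with matplotlib 3.10.9.

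The lists and the members they hold were chosen with earlier results of these data known, so their counts are descriptions. In each list the text named key genes marked when the list was written and, among its DEGs with at least 10 CPM in the higher group, the 2 highest and 2 lowest fold changes. Rela, Il6, Eef2, Hif1a, Phgdh, Cdk1, Mcm6, S100a6, Col1a1, Col3a1, the interleukin 12 and 23 genes, the histone genes and Slc1a3, Kdr and the genes near absent from a group fall outside this rule and were named after their values were seen. The genes whose promoters are printed were chosen in the same way. Some list members are not reported here. A bound on a fold change was taken against 3 counts per library.

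Replicate numbers were not treated as pairs of brain and blood libraries. Deviations from the group means correlated at -0.0374, 0.0732 and -0.0712 over 13091 genes for libraries of the same number. With 3 libraries a group, and pools of 5 mice set against single mice, these values cannot show whether libraries were paired. Alternatives were DESeq2 1.42.0, other filters, normalizations and thresholds, all 9 libraries in a single fit, a replicate block, leaving out each library, and an offset for transcript length and GC content, the last chosen after seeing the data.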

Additional observations from a re-analysis of the deposited data

How the results depend on the processing

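The count of 2771 DEGs ranged from 2174 with a mean of at least 50 counts to 3196 with DESeq2 among the alternative fits, and from 2258 to 3014 with a library left out. An adjusted p threshold of 0.01 gave 1793 DEGs, 598 of them downregulated, and no fold change threshold gave 1727 downregulated genes. Upregulated genes numbered 1502 to 1767 and downregulated genes 725 to 1247 with a library left out. The replicate block gave 2634 DEGs, 1681 upregulated and 953 downregulated. With at most 10 counts allowed in the lower group, 246 genes were on in the brain and 55 in stroke blood. Scaling by library size only moved the median log2 fold change of all genes from 0.06 to 0.22, and the length and GC offset, chosen after seeing the data, moved it to -0.13.

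No DEG named in the text changed direction under these alternatives. Genes that were not DEGs and lay near 0 did. With library size only the log2 fold changes were 0.04 for Arntl, 0.127 for Cd40 and 0.018 for Spi1. With upper-quartile normalization they were -0.043 for H2-D1, -0.114 for Hk2, -0.064 for Irf8 and -0.122 for Sqle. With the offset they were -0.153 for Csf1r, -0.089 for Fcgr1, -0.124 for H2-D1, -0.36 for Hk2, -0.307 for Irf8, 0.259 for Isg15, -0.024 for Mitf and -0.346 for Sqle. Sqle was at -0.003 with RLE normalization and -0.008 with all 9 libraries, where Hk2 was at 0.00. With a library left out the values ran from -0.514 to 0.214 for Arntl, -0.2 to 0.103 for Cd40, -0.097 to 0.189 for Hk2, -0.088 to 0.141 for Irf8, -0.46 to 0.107 for Isg15, -0.011 to 0.764 for Mitf, -0.364 to 1.11 for Nlrp3 and -0.168 to 0.357 for Sqle. Without brain replicate 1, Mcl1, Plaur, Nfkbia and Ass1 were no longer DEGs, Klf2 lost its call without brain replicate 2 or 3 or stroke blood replicate 1 or 3, and Slc7a11 without stroke blood replicate 1 or 2. With the offset Casp4, Clec4e, Ctsb, Ifitm3, Mcl1, Pfkl, Rela, S100a6 and Socs3 lost theirs. The causes were not tested. With 3 libraries a group, few counts limit genes near 1 CPM, and 1 brain library moves their means.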
